A study of Mus musculus with 16 samples.

Results

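The genes of the subcortical maternal complex were followed in growing mouse oocytes that lacked the histone deacetylases Hdac1, Hdac2 or both. The 7 members were taken by name: Nlrp5, Ooep, Tle6, Khdc3, Padi6, Zbed3 and Nlrp2. They are 7 of the 18820 genes tested, and each was read by exactly 1 probe set, the group of short array probes that together report 1 transcript. Total RNA of 80 oocytes per sample, from C57BL/6 mice aged 12 days, was amplified and hybridised to 16 Affymetrix Mouse 1.1 ST arrays. The 4 genotypes had 4 biological replicates each and were wild type, Hdac1 knockout, Hdac2 knockout and double knockout. The knockouts carried conditional alleles of Hdac1, of Hdac2 or of both, deleted by Zp3-Cre, a transgene whose promoter drives Cre in the oocyte as it grows. The labels do not say whether the wild-type mice carried floxed alleles or the Cre transgene, nor how many mice gave each sample. Per the labels the study asked what HDAC1 and HDAC2 do in the living animal while the oocyte grows.

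As background, the subcortical maternal complex is a protein assembly that gathers beneath the membrane of the growing oocyte and passes into the early embryo, which stalls or divides abnormally when central members are missing from the egg. Its mRNAs are made during oocyte growth and stored. Several members are also tied to the cytoplasmic lattices, fibrous arrays of the egg that hold stored ribosomes and proteins. HDAC1 and HDAC2 remove acetyl groups from histones inside shared co-repressor complexes.

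Values are given as deposited, on what was inferred to be a log2 scale, with array medians of 4.46 to 4.59 and array maxima of 12.74 to 12.89. In wild type the 7 members averaged 11.04 to 12.20, near the upper end of that scale. All 12 oocyte markers measured lay above the median of tested probe sets in each genotype. Of the 10 granulosa markers 2 or 3 did, of the 12 theca and stroma markers 1 and of the 9 blood, immune and endothelial markers 3 or 4. The defining granulosa genes Amh, Fshr and Foxl2 averaged 3.45, 4.10 and 4.71 in wild type and 3.43, 4.13 and 4.78 in the double knockout, below the median of 5.24 to 5.33. The summed linear signal of the granulosa list ran from 1061 to 1158 in wild type and from 677 to 723 in the double knockout, where its brightest gene, Nr5a2, fell from 9.82 to 8.74. For theca and stroma the sums were 363 to 399 and 274 to 359, and for blood, immune and endothelial genes 621 to 686 and 331 to 410. The highest gene mean of these 2 lists went from 7.69 in wild type to 7.02 in the double knockout and from 8.42 to 7.04. The median gene mean changed little, from 4.64 to 4.63 for granulosa, from 3.99 to 4.05 for theca and stroma and from 3.83 to 3.85 for blood, immune and endothelial genes. The part of these sums in the members' results was not tested.

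Hdac1 averaged 15.8% of its wild-type signal in the Hdac1 knockout and 32.5% in the double knockout (probe set 10516605). Its second probe set gave 15.3% in the Hdac1 knockout and 32.2% in the double knockout. At probe set 10516605 the double knockout thus kept 2.06-fold the signal of the Hdac1 knockout (limma adjusted p = 5.22e-08). In the Hdac2 knockout Hdac1 averaged 129% of wild type there (limma adjusted p = 0.0172) and 127% at the second probe set (0.0208). The part of these levels in the members' results was not tested. The Hdac2 probe set averaged 93.5% of wild type in the Hdac2 knockout (adjusted p = 0.33) and 86.2% in the double knockout (limma adjusted p = 0.00274), so it does not show the Hdac2 deletion in the single knockout. Where its probes lie relative to the deleted part of the gene was not analysed here.

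Nlrp2 fell in the double knockout, and no other member passed the test there with the values as deposited. In neither single knockout did any member pass. The test was limma's moderated test in 1 model over all 16 arrays, with Benjamini-Hochberg adjustment over 21218 probe sets and a threshold of 0.05 on the adjusted p. Against wild type, 1 of 7 members fell and 0 rose in the double knockout, where 38.3% of all tested probe sets passed (18.5% higher, 19.8% lower). After each array was centred on its median, Tle6 passed as well (log2 difference -0.13, adjusted p = 0.0302). Centring changed the calls over all probe sets from 3924 higher and 4198 lower to 2895 and 6506, and quantile normalization to 3382 and 5025. In the Hdac2 knockout 0 of 7 members passed beside 5.59% of all probe sets, with 1 member, Tle6, at an unadjusted p under 0.05. In the Hdac1 knockout 0 of 7 passed beside 0.0707%, and 0 had an unadjusted p under 0.05. These backgrounds move with single arrays. The 15 probe sets called in the Hdac1 knockout became 30 without its replicate 4. The 1187 called in the Hdac2 knockout became 683 and 716 without its replicates 1 and 4, and 770 and 722 without wild-type replicates 3 and 4. Pooled RNA cannot tell fewer cells of a kind from less RNA per cell, and the 3 comparisons with wild type share the same 4 wild-type arrays.

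**Figure D1:**
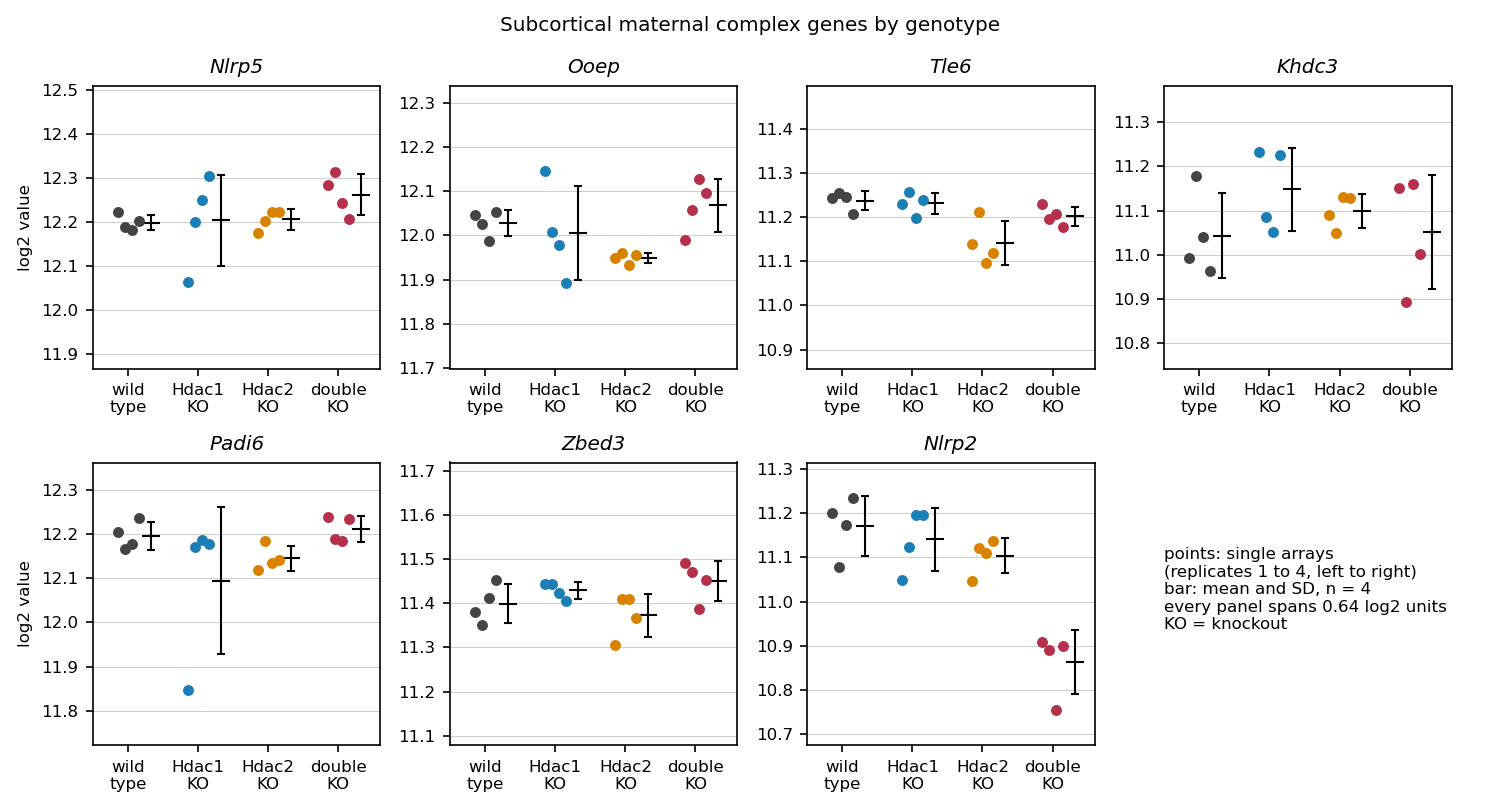
Deposited log2 value of the 7 member genes on each of the 16 arrays, by genotype, with 4 arrays per genotype and the group mean marked. The 4 double-knockout arrays of Nlrp2 (10.76 to 10.91) lie below its 12 other arrays, while for each of the other 6 genes the double-knockout arrays overlap the wild-type arrays.

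Nlrp2 encodes a member of the NLR family, proteins with a nucleotide-binding domain and leucine-rich repeats, and is a maternal-effect gene. On the wild-type arrays its log2 values were 11.20, 11.08, 11.17 and 11.24. The Hdac1 knockout gave 11.05, 11.12, 11.20 and 11.20, and the Hdac2 knockout 11.05, 11.12, 11.11 and 11.14. Without both genes the values were 10.91, 10.89, 10.76 and 10.90. All 4 double-knockout arrays were thus lower than every array of the other genotypes, while wild type and both single knockouts overlapped.

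The double-knockout mean of Nlrp2 was 10.86 ± 0.07 (SD, n = 4) and the wild-type mean 11.17 ± 0.07, so the level fell to 80.8% of wild type (log2 difference -0.31, SE 0.05, 95% interval -0.42 to -0.19, limma adjusted p = 0.000249). Lower groups without overlap made up 18.9% of all tested probe sets in that comparison, 18.6% against the Hdac1 knockout and 16% against the Hdac2 knockout. Against the Hdac1 knockout the level was 82.5% (log2 difference -0.28, interval -0.39 to -0.16, limma adjusted p = 0.000608). That comparison called 1 of 7 members beside 38.7% of all probe sets. Against the Hdac2 knockout it was 84.6% (log2 difference -0.24, interval -0.36 to -0.12, limma adjusted p = 0.00257). There, too, 1 of 7 members passed, beside 33.7% of all probe sets. The fall of Nlrp2 is smaller than the 1.4-fold limit that the study's design text names.

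In the single knockouts Nlrp2 averaged 98.0% of wild type without Hdac1 (log2 difference -0.03, interval -0.15 to 0.09) and 95.4% without Hdac2 (-0.07, interval -0.18 to 0.05). The interaction asks by how much the double-knockout difference departs from both single-knockout differences added together. For Nlrp2 it was -0.21 (SE 0.08, interval -0.38 to -0.05), with an unadjusted p of 0.0154 and a limma adjusted p of 0.0615. It missed the threshold as deposited but passed in 6 of 23 alternatives, over which its adjusted p ran from 0.0108 to 0.126. Without replicate 1 of the Hdac1 knockout it was 0.0349. In the interaction 0 of 7 members passed beside 23.3% of all probe sets.

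The promoters of 3 members are shown because they contrast the gene that fell with a pair that did not pass. They were chosen after the values were seen, and a link between E-boxes and the fall of Nlrp2 was not tested. Each line gives the 250 bases before the start site, 5′ to 3′ on the strand of the gene, from RefSeq on GRCm38.p6. Capitals mark E-boxes (CANNTG), the motif bound by basic helix-loop-helix factors such as FIGLA, which drives zona pellucida genes in oocytes. Nlrp2 lies at chr7:5351036-5351285 on the minus strand, Ooep at chr9:78378589-78378838 on the minus strand and Padi6 at chr4:140742644-140742893 on the minus strand.
Nlrp2: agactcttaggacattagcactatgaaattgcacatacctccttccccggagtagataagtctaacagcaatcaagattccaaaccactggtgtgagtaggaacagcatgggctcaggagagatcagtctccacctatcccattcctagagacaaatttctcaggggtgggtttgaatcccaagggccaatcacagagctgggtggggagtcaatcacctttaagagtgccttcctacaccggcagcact
Ooep: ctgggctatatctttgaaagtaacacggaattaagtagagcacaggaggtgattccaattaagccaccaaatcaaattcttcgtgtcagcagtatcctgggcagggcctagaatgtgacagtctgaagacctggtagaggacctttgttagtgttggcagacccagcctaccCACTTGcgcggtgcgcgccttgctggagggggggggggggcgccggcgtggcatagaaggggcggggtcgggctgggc
Padi6: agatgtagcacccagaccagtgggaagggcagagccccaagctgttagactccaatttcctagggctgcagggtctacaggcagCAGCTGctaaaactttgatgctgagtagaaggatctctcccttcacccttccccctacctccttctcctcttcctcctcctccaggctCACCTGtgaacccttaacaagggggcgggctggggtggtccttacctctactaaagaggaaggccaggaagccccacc

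The Nlrp2 window held 0 E-boxes. The Ooep window held 1, which begins 78 bases before the start. That of Padi6 held 2, beginning 166 and 78 bases before it. Over all 7 members, RefSeq gave 11 windows, of which 10 held an E-box, beside 66.2% of 32841 promoter windows of the same length. CANNTG reads alike on both strands, so each match counts for both. TAATTA or TAATTG, on either strand, was found in 2 of the 11 windows, 1 each of Nlrp5 and Ooep, beside 11.3% of all windows. CG dinucleotides numbered 2 in the Nlrp2 window, 11 in that of Ooep and 1 in that of Padi6, with a median of 6 over all windows.

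Nlrp5, also called Mater, encodes an NLR protein of the core assembly, without which embryos arrest in early cleavage. Its means were 12.20 ± 0.02 (SD, n = 4) in wild type, 12.20 ± 0.10 without Hdac1, 12.21 ± 0.02 without Hdac2 and 12.26 ± 0.05 without both. Its arrays ran from 12.18 to 12.22 in wild type and from 12.21 to 12.31 in the double knockout, so the groups overlapped. The double-knockout difference was 0.06 (interval -0.05 to 0.17, limma adjusted p = 0.391).

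Ooep encodes a small protein with an RNA-binding-like KH fold that joins the core of the complex. Its wild-type arrays read 12.05, 12.03, 11.99 and 12.05, and its double-knockout arrays 11.99, 12.06, 12.13 and 12.10. The Hdac1 knockout gave 12.15, 12.01, 11.98 and 11.89, and the Hdac2 knockout 11.95, 11.96, 11.93 and 11.96. The 4 Hdac2-knockout arrays thus lay below all wild-type and all double-knockout arrays, while those of the Hdac1 knockout spread across the other groups.

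For Ooep the Hdac2 knockout differed from wild type by -0.08 (interval -0.19 to 0.04, limma adjusted p = 0.483). Lower groups without overlap were found for 7.17% of probe sets in that comparison. The double knockout was 0.12 above the Hdac2 knockout (interval 0.004 to 0.234), with an unadjusted p of 0.043 and a limma adjusted p of 0.107. It passed under a trended, robust variance prior (adjusted p = 0.0294) and among probe sets of the members' brightness alone (0.0233). Higher groups without overlap made up 15.7% there. The double knockout against wild type gave 0.04 (interval -0.07 to 0.16, adjusted p = 0.621).

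Tle6 encodes a member of the Groucho family, mostly transcriptional co-repressors, and its protein sits in the core with NLRP5 and OOEP. Wild-type arrays read 11.24, 11.25, 11.25 and 11.21, and those of the Hdac1 knockout 11.23, 11.26, 11.20 and 11.24. The Hdac2 knockout gave 11.14, 11.21, 11.10 and 11.12, and the double knockout 11.23, 11.19, 11.21 and 11.18. The Hdac2 knockout was lowest on average, but its highest array reached the range of the other genotypes.

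The difference of Tle6 from wild type was -0.10 in the Hdac2 knockout (interval -0.187 to -0.005, unadjusted p = 0.0399, limma adjusted p = 0.24). In the double knockout it was -0.04 (interval -0.13 to 0.06, adjusted p = 0.579), the value that became -0.13 with centred arrays. Quantile normalization gave -0.10 for the same comparison (limma adjusted p = 0.0812).

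Khdc3, also called Filia, encodes a KH-domain protein linked to genome stability in early embryos. Its means were 11.04 ± 0.10 in wild type, 11.15 ± 0.09 without Hdac1, 11.10 ± 0.04 without Hdac2 and 11.05 ± 0.13 without both (SD, n = 4). Its wild-type arrays ran from 10.96 to 11.18 and its double-knockout arrays from 10.89 to 11.16, an overlap over most of both ranges. This was the widest residual spread among the 7, with a pooled SD of 0.09, and the double-knockout difference was 0.01 (interval -0.14 to 0.16, limma adjusted p = 0.948). In the Hdac1 knockout it was 0.11 (interval -0.04 to 0.25, adjusted p = 0.719).

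Padi6 encodes an oocyte member of the peptidylarginine deiminase family that is needed for the cytoplasmic lattices. Wild-type arrays read 12.20, 12.17, 12.18 and 12.24, and double-knockout arrays 12.24, 12.19, 12.19 and 12.23. The Hdac1 knockout gave 11.85, 12.17, 12.19 and 12.18, and the Hdac2 knockout 12.12, 12.18, 12.13 and 12.14. Replicate 1 of the Hdac1 knockout stood apart below every other array of this gene. The same array was also the lowest of its group for Nlrp5 (12.06) and Nlrp2 (11.05), and the highest of its group for Ooep (12.15), Khdc3 (11.23) and, by a narrow margin, Zbed3 (11.44).

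For Padi6 the double knockout differed from wild type by 0.02 (interval -0.12 to 0.15, limma adjusted p = 0.89) and the Hdac1 knockout by -0.10 (interval -0.24 to 0.04, adjusted p = 0.714). Without replicate 1 of the Hdac1 knockout the latter was -0.02 (adjusted p = 0.959). Double-knockout arrays all lay above Hdac2-knockout arrays, by 0.07 on average (interval -0.07 to 0.21, limma adjusted p = 0.488). Higher groups without overlap made up 15.7% of all probe sets there, and the nearest arrays of the groups differed by less than 0.01.

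Zbed3 encodes a zinc-finger protein of the complex that takes part in placing the spindle in the zygote. Its means were 11.40 ± 0.04 in wild type, 11.43 ± 0.02 without Hdac1, 11.37 ± 0.05 without Hdac2 and 11.45 ± 0.04 without both (SD, n = 4). The double-knockout arrays, 11.39 to 11.49, overlapped those of wild type, 11.35 to 11.45. The difference was 0.05 (interval -0.05 to 0.15, limma adjusted p = 0.428).

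For the 6 members other than Nlrp2, the intervals give the differences that these arrays leave room for. In the double knockout they spanned -0.14 to 0.17 on the log2 scale, or 0.908 to 1.13 times the wild-type level, with the values as deposited. Centring the arrays moved that span to -0.23 to 0.09 and quantile normalization to -0.20 to 0.14, so the lower bound depends on the scaling. In the Hdac1 knockout they spanned 0.847 to 1.19 times, and in the Hdac2 knockout 0.874 to 1.15 times. The median absolute log2 difference in the double knockout was 0.04 over the 7 members and 0.15 over all tested probe sets. Over the 649 probe sets whose wild-type mean lay in the members' range it was 0.11, and 41.6% of those passed the test. The smallest difference that passed was 0.12, both over all tested probe sets and in that range. Between the single knockouts 0 of 7 members passed, beside 5.78% of all probe sets, and 0 had an unadjusted p under 0.05. The 1226 probe sets behind that share became 794 and 785 without replicates 1 and 3 of the Hdac1 knockout, and 752 and 678 without replicates 1 and 4 of the Hdac2 knockout.

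**Figure D2:**
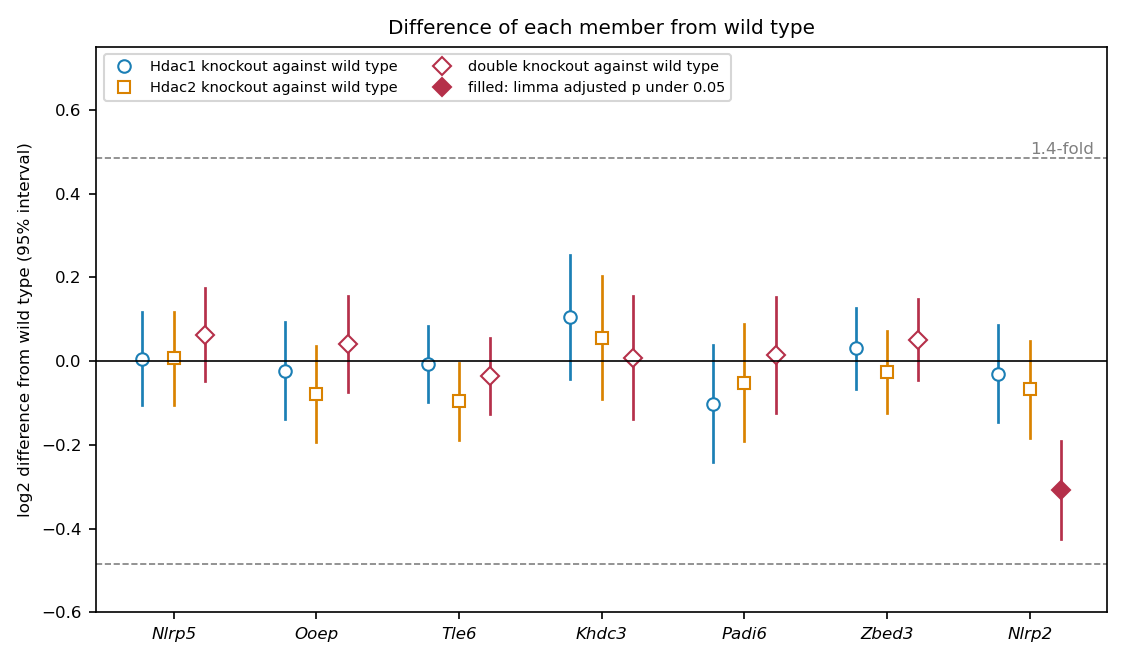
Log2 difference from wild type of each member gene in the 3 knockouts, as points with 95% intervals from the limma model (n = 4 arrays per genotype). In the double knockout the interval of Nlrp2 (-0.42 to -0.19) excludes 0 and those of the other 6 genes, -0.14 to 0.17 at their widest, include it. Tle6 also passed there when arrays were centred on their medians.

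The order of the genotype means differed among members. Wild type was highest for Tle6 and Nlrp2, and the double knockout for Nlrp5, Ooep, Padi6 and Zbed3. The Hdac1 knockout was highest for Khdc3. Apart from the steps down to the Nlrp2 double knockout, no pairwise step between genotypes in these orders passed the test as deposited. Over the 16 arrays, each gene's profile was taken as its difference from its own wild-type mean, and the likeness of a pair as the root mean square of the difference between profiles. Among the members, Nlrp5 and Zbed3 were most alike (0.0647) and Khdc3 and Nlrp2 least alike (0.22).

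By the same measure over 17979 named genes, the profiles nearest to Nlrp5 were those of Oas1e (0.04), Zp3 (0.0412), which encodes a zona pellucida protein, and Serbp1. Spin1, whose product reads histone methylation in oocytes, was nearest to Tle6 (0.0416). Psma2, a proteasome subunit gene, was nearest to Padi6 (0.0415) and Lamp1, a lysosomal membrane protein gene, to Zbed3 (0.0401). N4bp2l2 was nearest to Ooep (0.0487) and Tulp4 to Khdc3 (0.0644). For Nlrp2 the nearest were Hif1a (0.0448), which encodes the oxygen-regulated transcription factor, Plk4 (0.0517), a kinase of centriole duplication, and Eif2b1 (0.054), a subunit of a translation initiation factor. Their double-knockout log2 differences, which the choice by likeness to Nlrp2 sets, were -0.34, -0.35 and -0.35. The median over all genes ranged from 0.168 for Zbed3 to 0.22 for Nlrp2. Some near profiles belong to dim genes that hardly varied, such as Cxcl12 for Ooep, Mir450-1 for Tle6 and Olfr965 for Khdc3.

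The NLR genes of the oocyte are relatives of Nlrp5 and Nlrp2, and most lie in clusters on the same chromosome. Of 9 measured, 5 fell in the double knockout, 0 rose and 4 did not pass, beside 19.8% lower and 18.5% higher over all tested probe sets. The median log2 difference was -0.14, beside -0.01 over all. Nlrp9c went from 10.52 ± 0.07 to 9.84 ± 0.15 (log2 difference -0.68, limma adjusted p = 2.44e-05) and Nlrp4c from 8.63 ± 0.10 to 7.97 ± 0.08 (-0.66, 1.86e-07). Nlrp4a (-0.29), Nlrp9b (-0.26) and Nlrp4g (-0.14, adjusted p = 0.0437) fell less. Nlrp14, at 11.91 in wild type, differed by 0.00 (interval -0.09 to 0.10), and Nlrp4e also by 0.00. Nlrp9a differed by 0.18 (adjusted p = 0.0515). Several of these genes are close copies of each other, so probes may share signal among them. Of 11 NLR genes outside the oocyte group, 0 passed. Of these, 9 averaged 3.30 to 4.95 in wild type, below the median of tested probe sets, and the others, Nod2 and Nlrc5, averaged 5.49 and 6.82.

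Relatives of the other members were measured in smaller numbers. Padi3, a deiminase of skin and hair follicles, rose from 4.63 ± 0.25 to 7.93 ± 0.58 in the double knockout (limma adjusted p = 3.33e-09). Its wild-type level lay below the median of tested probe sets and no detection call was at hand, so its log2 difference is uncertain as a fold. It was at 0.27 above wild type in the Hdac2 knockout (adjusted p = 0.542) and 0.10 above in the Hdac1 knockout (0.946). Padi1, Padi2 and Padi4 did not pass as deposited, and after centring or quantile normalization 1 more gene of the family passed, on the lower side. Of 5 Groucho relatives of Tle6, 3 rose: Tle5 2.23-fold, Tle1 2.03-fold and the dim Tle3 from 3.94 to 4.33 (limma adjusted p = 4.06e-07, 8.04e-07 and 0.000423). Tle2 and Tle4 did not pass, at -0.09 and 0.06. Over all tested probe sets 18.5% rose and 19.8% fell in the double knockout, and 5 genes are few for a share.

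Among KH-fold relatives of Khdc3 and Ooep, Khdc1a rose 1.21-fold (limma adjusted p = 0.0458) as deposited and did not pass after centring or quantile normalization. Dppa5a differed by 0.07 at its bright probe set (adjusted p = 0.323) and rose by 0.31 at a dimmer one (0.00531). Zbed5, the 1 measured relative of Zbed3, differed by -0.04.

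**Figure D3:**
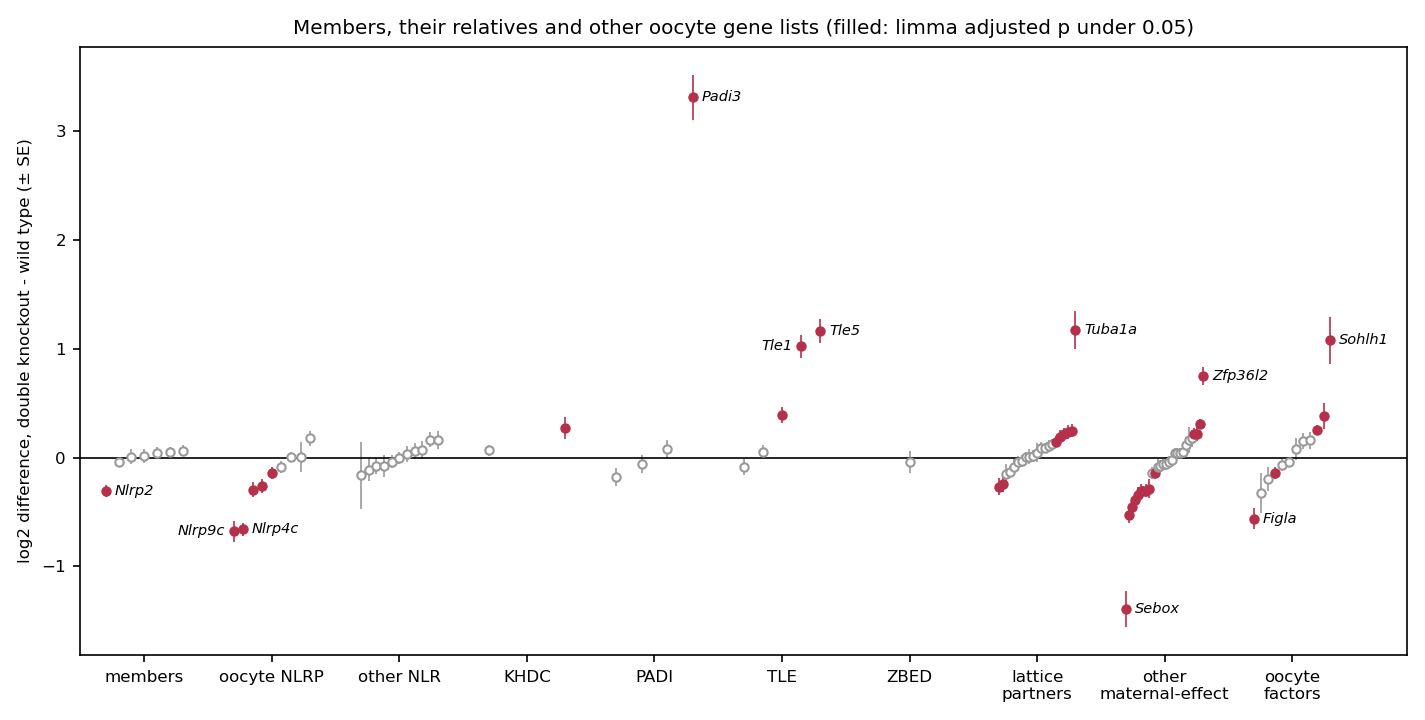
Log2 difference between double knockout and wild type for the relatives of the members and for lattice partners, other maternal-effect genes and oocyte transcription factors, 1 point per gene at its brightest probe set, with the 7 members for comparison; bars are ± SE and filled points passed. Padi3 (3.31) and Tle5 (1.16) lie far above their family's member, and Nlrp9c (-0.68) and Nlrp4c (-0.66) lie below Nlrp2 (-0.31).

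The products of other maternal-effect genes need to be supplied by the egg for the embryo to develop. Of 28 measured, 10 fell, 4 rose and 14 did not pass in the double knockout, with a median of -0.06, and after centring 13 fell and 2 rose. Over all tested probe sets 38.3% passed as deposited, 19.8% lower and 18.5% higher. With centred arrays, 6506 of all 21218 probe sets were lower and 2895 higher. Sebox, a homeobox gene, fell from 8.65 ± 0.17 to 7.26 ± 0.38 (limma adjusted p = 4.51e-06), and Bnc1, a zinc-finger factor gene, fell by 0.45 (1.28e-05). Eed, a subunit of the H3K27 methyltransferase complex, fell by 0.39 at its bright probe set (2.5e-05). Zfp36l2, whose product promotes mRNA decay, rose 1.69-fold (1.73e-06). Npm2, Zar1, Dnmt1 and Uhrf1 did not pass, at 0.04, 0.12, -0.06 and 0.04. In the Hdac2 knockout 2 of the 28 fell, beside 2.74% of all tested probe sets lower and 5.59% passing in either direction. In the Hdac1 knockout 0 passed, beside 0.0707% of all tested probe sets.

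Genes for lattice components and reported partners of the complex gave 6 higher, 2 lower and 13 not passing of 21 measured, and after centring 2 higher and 4 lower. As deposited, the share that passed is close to the 38.3% of all tested probe sets (18.5% higher, 19.8% lower). After centring, 2895 of all 21218 probe sets were higher and 6506 lower, a larger share than in this list. Tuba1a, an alpha-tubulin gene, rose 2.25-fold (limma adjusted p = 4.82e-05) and Tuba1b 1.19-fold (0.00218). Of the 14-3-3 adaptor genes, Ywhah rose 1.18-fold (0.00715) and Ywhag fell by 0.25 (0.00671).

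Of 12 oocyte transcription factors, 3 rose, 2 fell and 7 did not pass, with 2 higher and 4 lower after centring. As deposited that share, too, is near the 38.3% of all tested probe sets (18.5% higher, 19.8% lower). After centring, 2895 of all 21218 probe sets were higher and 6506 lower. Figla fell from 8.09 ± 0.20 to 7.54 ± 0.12 (log2 difference -0.56, limma adjusted p = 0.000261), and Nobox, a homeobox factor of oocyte genes, differed by -0.04 (interval -0.14 to 0.06, adjusted p = 0.583). Sohlh1, a helix-loop-helix factor of early oocytes, rose 2.11-fold (0.000811) and Foxo3, a forkhead factor of follicle dormancy, 1.19-fold (0.000228). Of the 12 oocyte markers 4 fell and 0 rose, beside 19.8% lower and 18.5% higher over all tested probe sets. After centring 8 of the 12 fell, where 6506 of all 21218 probe sets did.

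Genes around the members were compared to see what the same chromosome neighbourhoods did. In RefSeq gene order the 5 tested genes on either side gave 70 neighbours, of which 8 rose and 21 fell in the double knockout. That is 41.4%, close to the 38.3% over all tested probe sets (18.5% higher, 19.8% lower). By direction, the neighbours leaned further to the lower side than all probe sets did, with 7 of the 21 lower ones around Khdc3. Each neighbour is counted at 1 probe set, while the background counts every tested probe set. After centring 7 rose and 29 fell, where 2895 and 6506 of all 21218 probe sets did. Quantile normalization gave 8 and 23. With the values as deposited the counts varied by place. Around Khdc3 8 of 10 neighbours passed (1 higher, 7 lower), and 5 of 10 around Nlrp5 and around Zbed3. Passing genes numbered 4 of 10 around Nlrp2, 3 of 10 around Tle6 and 2 of 10 around Ooep and around Padi6.

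Khdc3 itself differed by 0.01 while its nearest tested genes fell on both sides, Rab27a, a vesicle-traffic GTPase gene, by 1.03 (limma adjusted p = 8.29e-08) and Rsl24d1 by 0.13 (0.0446). Ooep lies between Dppa5a, at 0.07, and Cgas, the gene of a DNA sensor, which fell by 0.64 (0.00211). The next genes beside Padi6 were Rcc2, which fell by 0.23 (0.00788), and Padi4, with Padi3 at the second place on that side. Tle2 (-0.09) and BC025920 (-0.20, adjusted p = 0.224) flank Tle6, and Tle5 lies beyond Tle2.

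Nlrp5 stands between Nlrp4e (0.00) and Vmn1r170 (-0.28, limma adjusted p = 0.107). Further along on the Nlrp4e side are the provisional genes Gm4567, which rose from 4.56 to 9.51 (5.56e-12), and Gm5891, which rose from 4.37 to 9.30 (7.82e-12). Their wild-type levels lay below the median of tested probe sets, so their log2 differences are uncertain as folds. Beside Zbed3, Pde8b fell by 0.36 (0.000521) and Aggf1 differed by -0.10. Next to Nlrp2 lie Gm5065, which fell by 0.37 (3.63e-05), and Vmn1r56, at 0.08. Within 5 places of Nlrp2, Rasl2-9 fell by 0.97, Nlrp4c by 0.66 and Rfpl4 by 0.21. Padi6 shares chromosome 4 with the targeted Hdac1, with 184 tested genes between them, and Tle6 shares chromosome 10 with Hdac2, with 372 between.

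**Figure D4:**
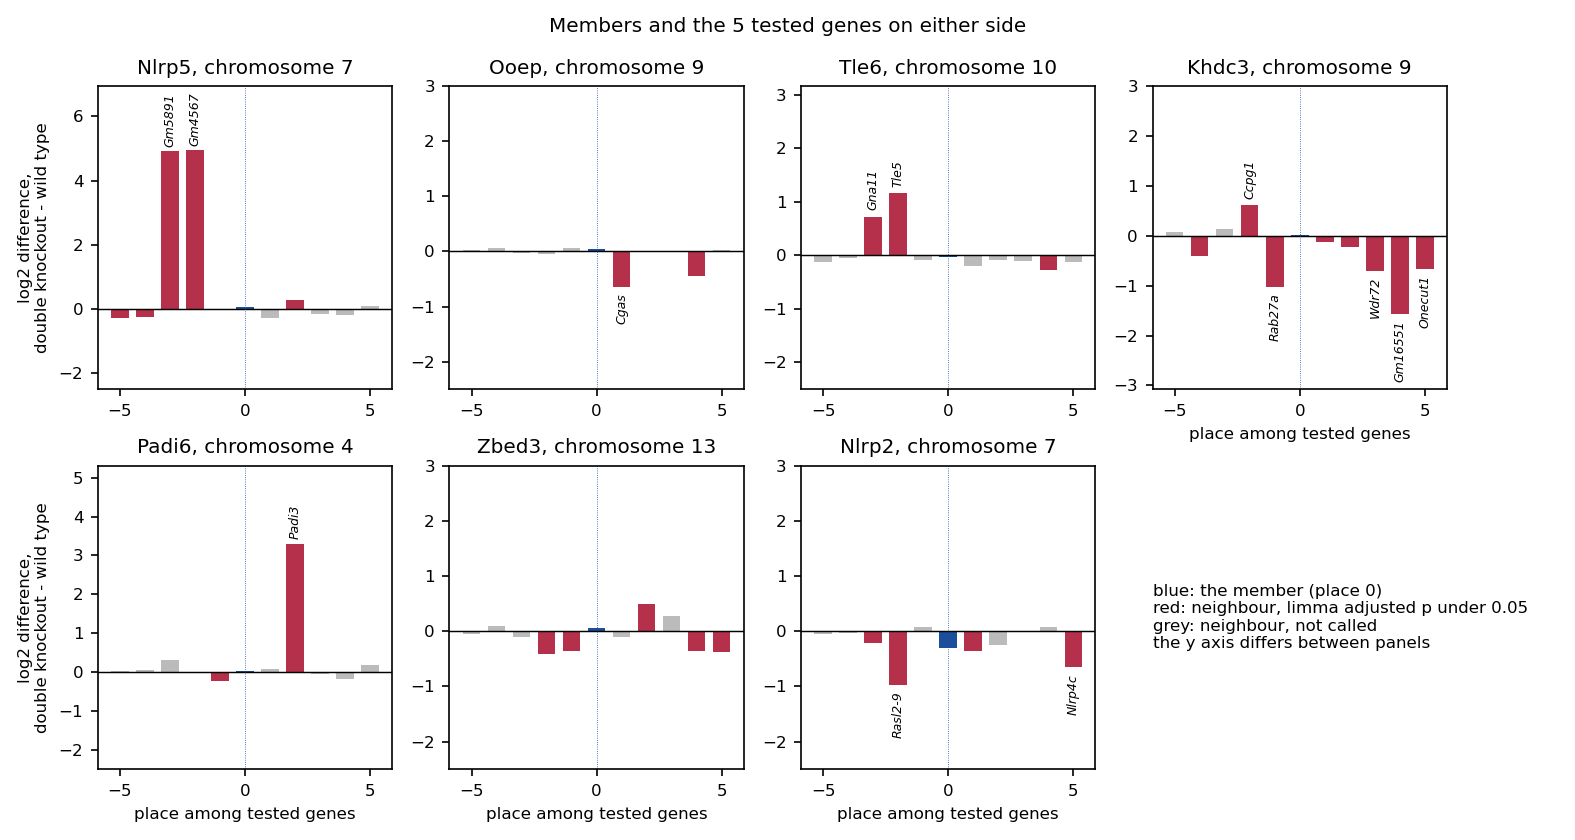
Log2 difference between double knockout and wild type for each member and the 5 tested genes on either side in RefSeq order, 1 panel per member, against the gene's place (0 is the member). Around Khdc3 (0.01) 7 of 10 neighbours fell, and Gm5891 and Gm4567 rose 4.93 and 4.95 near Nlrp5 (0.06). The vertical scale differs between panels.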

How the data were processed

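RNA of 16 pools of mouse oocytes was measured on Affymetrix Mouse 1.1 ST arrays, 4 per genotype, and groups were taken from the labelled genotypes. The authors deposited 1 log2-like value for each of 35556 probe sets and array, from 2.07 to 12.89, with 0 missing. Per the submitters' processing notes MAS5 was used (version not given), and the design text adds GeneSpring v7, SAM and EASE. The log base is not stated. Base 2 was inferred, since base e would put the top value at 394439, beyond the 65536 steps of a 16-bit scanner, against 7566 with base 2, and all folds rest on it. Values were used as deposited, with array medians of 4.46 to 4.59, and rescaled only as alternatives, which changed some calls. Arrays have no read depth, and their number limits the precision.

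Probe sets were named through the platform annotation: 21218 have 1 symbol and were tested, 1881 have several and 12457 none. Of the 21218, 21185 matched RefSeq genes of GRCm38.p6, which changed 0 symbols. One model of genotype means over all arrays was fitted with limma 3.58.1 in R 4.3.3 (12 residual degrees of freedom, eBayes), with 7 contrasts and two-sided p-values. Intervals are 95% and use limma's standard errors. A gene with several probe sets is given by the brightest.

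The members and all gene lists were chosen with earlier results of these data known. Named genes are the members, Hdac1, Hdac2 and up to 4 genes of each of 13 lists, ranked by adjusted p in double knockout against wild type. Also named are at least the nearest of the 3 profiles most alike to each member, and its nearest tested neighbours. The window of 5 neighbours was chosen later, and other list genes and neighbours named in the text were picked after their values were seen. Alternatives were array centring, quantile normalization, leaving out dim probe sets, testing all probe sets, only the compared groups, a replicate block, another variance prior, the 1.4-fold limit and leaving out each array. A fit over only the 649 probe sets in the members' range of level was added after the data were seen.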

Additional observations from a re-analysis of the deposited data

Results flagged for a closer look

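In 4 of 40 groups of 4 arrays examined, 1 array lay far from the other 3, with a gap to its nearest neighbour, as a share of the group's range, above Dixon's 95% critical value. Chance gives such a gap in about 5% of groups. For Padi6 in the Hdac1 knockout, replicate 1 (11.85) lay below the others (12.17 to 12.19), a gap of 0.956 of the range. For Nlrp2 in the double knockout, replicate 3 (10.76) lay below the others (10.89 to 10.91), a gap of 0.88 of the range. Without that array Nlrp2 was still lower than wild type, by -0.27 on the log2 scale (limma adjusted p = 0.00117). For the second Hdac1 probe set in wild type, replicate 4 (9.01) lay above the others (8.86 to 8.88), a gap of 0.855. For Hdac2 in the Hdac1 knockout, replicate 2 (11.05) lay below the others (11.14 to 11.16), a gap of 0.84.

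The effect of the 2 deletions together on the Hdac1 transcript differed from the sum of the single effects. Hdac1 was above wild type in the Hdac2 knockout, and higher in the double knockout than in the Hdac1 knockout, at both probe sets. The interaction was 0.73 at probe set 10447004 (limma adjusted p = 0.000261) and 0.676 at probe set 10516605 (limma adjusted p = 0.000539), both on the log2 scale.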

How the results depend on the processing

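Of 882 member values recomputed under the alternatives, 869 stayed on the same side of the threshold, 3 lost the call, 10 gained it and 0 called values changed sign. Among 821 that passed in neither setting, 36 changed sign. Nlrp2 in the double knockout passed against wild type, against the Hdac1 knockout and against the Hdac2 knockout in 16 of 16 alternatives each, with adjusted p from 1.09e-05 to 0.00299, from 2.74e-05 to 0.00626 and from 0.000154 to 0.011. The 1.4-fold limit, not counted there, left 0 members called in each of these comparisons, beside 16.4%, 16.6% and 12.1% of all probe sets. With arrays centred, 2 members passed against wild type (Nlrp2 and Tle6) and 2 against the Hdac1 knockout (Nlrp2 and Khdc3, adjusted p = 0.0472). Of all 21218 probe sets, 9401 and 9304 passed in these comparisons. Against the Hdac2 knockout 2 passed (Nlrp2 and Ooep) with a trended, robust variance prior and in the fit over the members' range. These fits called 7244 of 21218 and 347 of 649 probe sets. For the interaction 1 member, Nlrp2, passed with centring (0.0355), quantile normalization (0.0191), dim probe sets left out (0.0291), the trended, robust prior (0.0186) and the members' range (0.0108). In that order these fits called 5035, 5117, 4457, 5161 and 273 probe sets. Of these fits, 3 tested all 21218, the one without dim probe sets tested fewer and the last tested 649. Leaving out single arrays gave 0 to 1 members called in the interaction, the 1 without replicate 1 of the Hdac1 knockout. That fit called 4652 of 21218 probe sets. The cause of these changes was not tested.

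Of 134 genes of the fixed lists, 50 passed in the double knockout, 22 higher and 28 lower. That share is close to the 38.3% of all tested probe sets (18.5% higher, 19.8% lower). With centring 12 list genes were higher and 42 lower, where 2895 and 6506 of all 21218 probe sets were. The 1.4-fold limit left 17 list genes in all, beside 16.4% of all probe sets. In the fit over the members' range, which tests fewer genes, 13 list genes passed, beside 366 of its 649 probe sets. Leaving out single arrays gave 41 to 47. Centring moved the median difference of all probe sets against wild type by -0.09 in the double knockout.

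Same-numbered arrays of different genotypes did not deviate together: over 24 pairs the correlation of deviations ran from -0.148 to 0.0866, with 0 above 0.1. With a replicate block, 1 member passed in the double knockout against wild type (Nlrp2, adjusted p = 0.000763), 47 list genes passed, and the interaction of Nlrp2 had an adjusted p of 0.0843. Of all 21218 probe sets, 7885 passed against wild type with that block and 4667 in the interaction.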
